A study of Homo sapiens with 6 samples.

Results

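Interferon beta, the lambda interferons, 2 further interferon genes and the receptor chains through which beta and lambda signal were examined in COV434 cells with and without BRG1. The members were the 10 rows of the deposited gene table whose symbol was IFNB1, IFNL1, IFNL2, IFNL3, IFNE, IFNK, IFNAR1, IFNAR2, IFNLR1 or IL10RB, out of 19899 genes. They were proposed with the difference between BRG1 and Control samples already known, so that they count as chosen by this contrast, and their differences below are a description with no test.

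COV434 is an established ovarian line that was once assigned to granulosa cells and is used by the study as a model of SCCOHT, a rare ovarian small cell cancer in which BRG1 is lost. SMARCA4 is the gene of BRG1, a motor subunit that lets SWI/SNF complexes move nucleosomes. Parental cells received by FuGENE 6 either pCDNA3-neo (Control, n = 3) or PBJ5-BRG1 (BRG1, n = 3), in both groups together with pBABE-puro, and were kept on puromycin at 2 to 3 µg/ml for 3 days, starting 24 hours after transfection. All samples therefore came from 1 line, carried plasmid DNA and were puromycin-selected pools. The plasmids differ in name as well as in the BRG1 insert, so the insert and the plasmid backbone cannot be told apart as the source of a difference between groups.

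Interferon beta is a type I interferon that many cell types secrete when nucleic acid sensors are engaged, and it signals through a receptor built of IFNAR1 and IFNAR2. The lambda interferons are type III interferons, act mainly on epithelial cells and use IFNLR1 together with IL10RB, a chain shared with interleukin 10 family receptors. Both receptors lead through JAK1 and TYK2 to a transcription factor complex that includes STAT2 and IRF9 and switches on the interferon target genes.

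The samples held 29699741 (BRG1 sample 3) to 63613710 (BRG1 sample 1) estimated counts, and mitochondrial genes took 5.18% to 6.00% of the counts in Control and 4.13% to 4.61% in BRG1 samples. Normalised counts of SMARCA4, in which plasmid transcripts are included, were 1439, 1676 and 1538 in Control and 108655, 79075 and 78589 in BRG1 samples. Of the granulosa cell markers FOXL2, FSHR, CYP19A1, AMH and INHA, the first pair held at most 3 counts in every sample. CYP19A1, the aromatase gene, was higher with BRG1 (log2 fold change 3.76, DESeq2 adjusted p 8.7e-20). AMH held 186 to 589 counts and INHA 28 to 52 per sample, and neither was called. Of 9 leukocyte and plasmacytoid dendritic cell markers, 4 (CD3E, MS4A1, LILRA4 and CLEC4C) held at most 3 counts in every sample and 0 were called. PTPRC, a leukocyte marker, was present in every sample at 276 to 884 counts and held most of the counts of this list. Summed over these 9 markers the level was 7.78 to 14.8 CPM (counts scaled by the library total) in Control and 8.41 to 17.6 in BRG1 samples, and over 4 fibroblast markers, of which 0 were called, it was 26.1 to 28.3 and 21.4 to 29.8. In bulk RNA, fewer cells that express a gene and less RNA per cell cannot be told apart.

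The sequences just upstream of the beta and lambda genes are shown because these genes had most of their counts in BRG1 samples. The 250 bases before each start site are taken from RefSeq (GRCh38.p14), 5′ to 3′ on the strand of the gene. Capitals mark matches, on either strand, to AA, any 2 bases and GAAA (an IRF core), to GAAA, any 2 bases and GAAA (an interferon-stimulated response element core, which can overlap the former) and to GGG, any 3 bases and TTCC (an NF-kappaB site). IFNB1 lies at chr9:21077943-21078192 on the minus strand, IFNL1 at chr19:39296157-39296406 on the plus strand and IFNL2 at chr19:39268146-39268395 on the plus strand.
IFNB1: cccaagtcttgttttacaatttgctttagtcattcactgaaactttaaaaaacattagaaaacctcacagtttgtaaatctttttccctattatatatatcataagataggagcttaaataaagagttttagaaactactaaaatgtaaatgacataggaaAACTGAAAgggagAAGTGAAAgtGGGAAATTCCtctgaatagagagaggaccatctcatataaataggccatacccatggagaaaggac
IFNL1: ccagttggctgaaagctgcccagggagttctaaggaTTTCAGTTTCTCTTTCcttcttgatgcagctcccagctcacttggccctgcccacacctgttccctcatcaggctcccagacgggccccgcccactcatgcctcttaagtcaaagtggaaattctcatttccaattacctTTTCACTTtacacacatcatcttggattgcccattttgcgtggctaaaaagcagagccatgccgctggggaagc
IFNL2: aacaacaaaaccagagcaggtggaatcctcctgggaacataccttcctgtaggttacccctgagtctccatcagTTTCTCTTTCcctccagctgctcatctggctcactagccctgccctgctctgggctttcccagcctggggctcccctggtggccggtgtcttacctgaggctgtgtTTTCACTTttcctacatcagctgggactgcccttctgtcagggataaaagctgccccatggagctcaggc

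In the IFNB1 window the IRF letters occurred at bases 89 to 82 and 76 to 69 before the start site, and the NF-kappaB letters at bases 66 to 57. The IFNL1 window held 3 IRF matches and 2 overlapping response element matches, and those of IFNL2 and IFNL3 held 2 and 1 each. The IFNL3 window differed from that of IFNL2 at 1 of 250 positions. Among all 35116 RefSeq promoters of this length, 20.3% held the IRF letters, 3.02% the response element and 5.67% the NF-kappaB letters. Of the other members with a window, IFNK had 1 IRF match and IFNE, IFNAR1, IFNLR1 and IL10RB had 0 of these 3. The letters TGANTCA (AP-1), found in 6.57% of promoters, and TGACGTCA (a cAMP response element), found in 1.65%, occurred in 0 of the 9 windows. Only these exact letters were searched, so a variant of either site would be missed and its absence is not shown. These matches describe letters in a window and not bound sites.

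**Figure D1:**
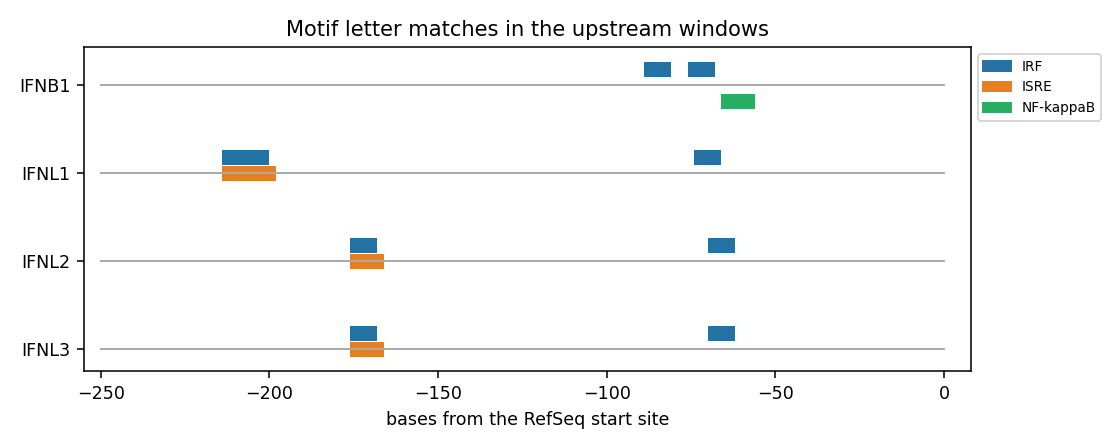
Positions of the motif letter matches in the 250 bases before the RefSeq start site of IFNB1, IFNL1, IFNL2 and IFNL3, with the distance from the start site in bases on the horizontal axis and 1 line per gene. IRF matches lie between 89 and 69 bases before the start of IFNB1, and the NF-kappaB match, present in IFNB1 only among these 4 genes, lies at 66 to 57.

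IFNB1 was the ligand with the most counts. It occupies bases 21077104 to 21077942 of chromosome 9, minus strand (GRCh38, GENCODE release 44), and had 0, 1 and 0 counts in Control samples 1 to 3. BRG1 samples 1 to 3 held 109, 74 and 21 counts, or 1.71, 1.36 and 0.705 CPM. Every BRG1 sample was thus above every Control sample, and the shallowest library, BRG1 sample 3, was the lowest of its group also in CPM. The mean rose from 0.391 ± 0.677 normalised counts in Control to 57.3 ± 24.1 with BRG1 (SD, n = 3), which gave a fitted log2 fold change of 7.29 (SE 1.32) and a 95% interval of 4.71 to 9.88. From the 204 counts against 1, the ratio at equal depth was 188, with an exact 95% interval of 33.3 to 7454 that covers counting error only.

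The lambda genes stood at far lower counts. IFNL1 (chromosome 19, 39296407 to 39298673, plus strand) had 0 counts in each Control sample and 10, 7 and 2 in BRG1 samples. Set against a floor of 3 counts over the Control group, its 19 counts, taken as exact, gave a bound of 5.83-fold. With counting error in both groups, the exact 95% lower limit of its ratio was 4.3. Its fitted log2 fold change was 4.84 (SE 2.00, 95% interval 0.91 to 8.77). The order of the BRG1 samples was that of IFNB1 and of the depth of the libraries.

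IFNL3 (chromosome 19, 39243455 to 39245250, minus strand) had 0.96, 0 and 0 estimated counts in Control and 3.86, 6.73 and 2.24 in BRG1 samples. That is 13 rounded counts against 1, a ratio of 12 with an exact 95% counting interval of 1.8 to 509. IFNL2 (chromosome 19, 39268396 to 39270188, plus strand) had 0, 0 and 0.997 estimated counts in Control and 2, 0 and 2 in BRG1 samples. Its ratio of 3.68 had an interval of 0.364 to 181, so a difference was not detectable at this depth. The groups did not overlap for IFNL3 and did for IFNL2. These genes are near-identical copies: 190 of the 874 distinct 78-base words of IFNL2 transcripts (21.7%) also occur in IFNL3, and 0 of the 698 words of IFNL1 occur in either. The division of reads between IFNL2 and IFNL3 is therefore uncertain, while their sum, 0.96, 0 and 0.997 in Control and 5.86, 6.73 and 4.24 in BRG1 samples, did not overlap between groups.

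Interferon kappa and interferon epsilon, type I interferons known from skin and from the female reproductive tract, did not follow this pattern. IFNK (chromosome 9, 27524290 to 27526498, plus strand) had 7, 4 and 4 counts in Control and 2, 6 and 0 in BRG1 samples, so that the groups overlapped. Its fitted log2 fold change was -1.24 with a 95% interval of -3.98 to 1.49, and was -2.66 without BRG1 replicate 2, the only BRG1 sample above 2 counts, and -0.74 without BRG1 replicate 3. IFNE (chromosome 9, 21480839 to 21482313, minus strand) had 0 counts in all 6 samples, which allows a level of up to 0.0214 CPM over the Control group and 0.0203 over the BRG1 group. Of all counts that the 6 interferon members took in BRG1 samples, 82.3% were IFNB1, 7.66% IFNL1, 5.18% IFNL3, 3.23% IFNK and 1.62% IFNL2.

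**Figure D2:**
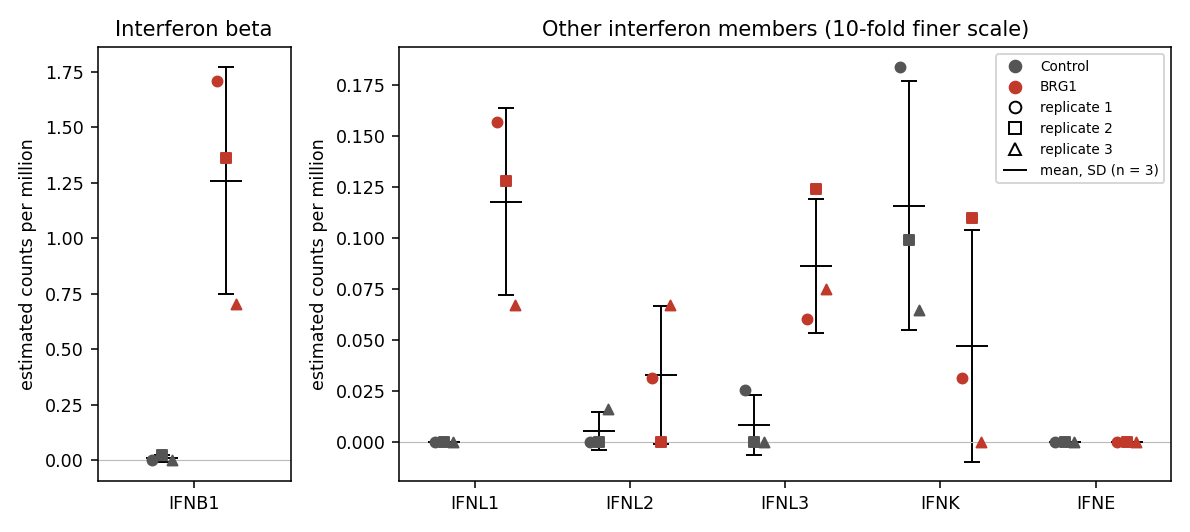
Level in CPM of the 6 interferon members in Control (grey) and BRG1 (red) samples, with symbols for the replicate number and the mean and SD (n = 3) in black; the right panel has a finer vertical scale. IFNB1 reached 0.705 to 1.71 with BRG1 against at most 0.0248 in Control, and IFNK overlapped between the groups.

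The receptor for interferon beta was present in both groups, whose values overlapped. IFNAR1 (chromosome 21, 33324387 to 33359864, plus strand) stood at 2974, 2564 and 2563 normalised counts in the Control group and at 3058, 2768 and 1884 in the BRG1 group, with the highest and the lowest value both in the BRG1 group. Its log2 fold change was -0.07 with a 95% interval of -0.49 to 0.35. IFNAR2 (chromosome 21, 33205282 to 33265675, plus strand) had 1115, 1079 and 943 in Control and 1116, 1305 and 906 in BRG1 samples, again overlapping, with a log2 fold change of 0.09 and an interval of -0.29 to 0.47.

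The lambda receptor was unequal in its chains. IL10RB (chromosome 21, 33266367 to 33311420, plus strand) reached 982, 1023 and 1014 normalised counts in the Control group against 1212, 1131 and 1193 in the BRG1 group. The groups did not overlap, and the fold was 1.17 (log2 fold change 0.23, 95% interval -0.02 to 0.47). IFNLR1, the chain particular to the lambda receptor (chromosome 1, 24154168 to 24187959, minus strand), had 0 counts in 5 samples and 2 in BRG1 sample 2, so both groups were at or under the floor of 3 counts. Exons of other genes, among them the readthrough gene IFNAR2-IL10RB, cover 27.7% of the exonic bases of IFNAR2 and 21.6% of those of IL10RB, and their values are uncertain to that extent.

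Compared per length, in CPM per kilobase of exon, the chains stood in the order IFNAR1, IL10RB and IFNAR2, at 3.69 ± 0.36, 2.68 ± 0.033 and 1.61 ± 0.141 in Control (SD, n = 3). With BRG1 they stood at 3.61 ± 0.798, 3.25 ± 0.122 and 1.77 ± 0.303. IFNAR1 was 1.84 to 2.42 times IFNAR2 within each sample, and IL10RB 1.5 to 2.27 times IFNAR2. Between IFNAR1 and IL10RB the ratio ran from 0.808 to 1.55, with IL10RB the higher in BRG1 sample 3, so that these neighbours did not differ beyond their spread with BRG1. With the longest transcript as the length this ratio ran from 1.05 to 2.02. IFNAR1 was then 3.04 to 4.01 times IFNAR2, and IL10RB 1.91 to 2.9 times IFNAR2. The Control levels of IFNAR1, IL10RB and IFNAR2 became 9.37, 5.24 and 2.48, so the size of these ratios depends on the length taken. On the first scale IFNB1 reached 1.5 ± 0.609 and IFNL1 0.152 ± 0.0593 in BRG1 samples.

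**Figure D3:**
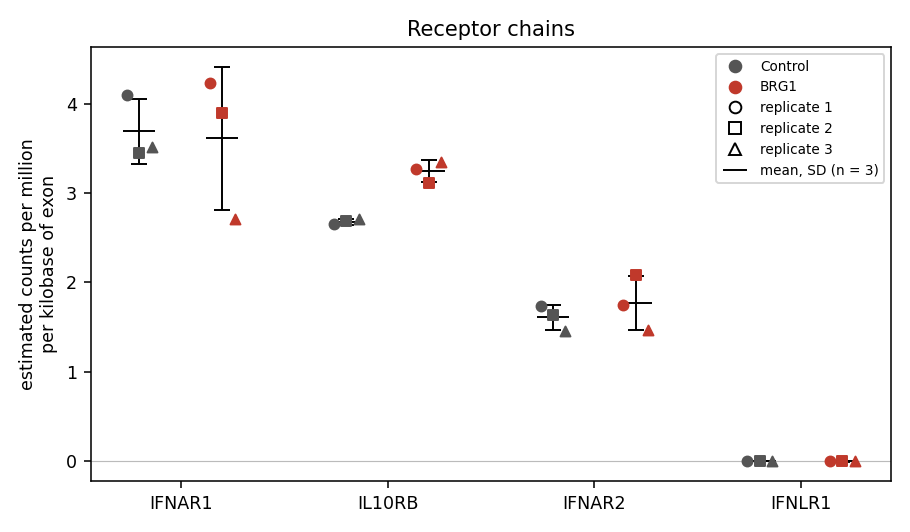
CPM per kilobase of exon of the 4 receptor chains in Control (grey) and BRG1 (red) samples, with symbols for the replicate number and the mean and SD (n = 3) in black. IFNAR1, IL10RB and IFNAR2 lay between 1.61 and 3.69 on average in every group, and IFNLR1 lay at the bottom of the scale.

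Over the members, 9 of 10 had a count and 7 had an adjusted p in the DESeq2 fit across the whole table, while 4 (IFNB1, IFNAR1, IFNAR2 and IL10RB) passed the low-count filter of edgeR. At a Benjamini-Hochberg adjusted p under 0.05 over all genes, 1 member was called higher (IFNB1) and 0 lower by DESeq2 and by edgeR. The same call was made of 11.0% of all tested genes for higher and 1.84% for lower with DESeq2, and of 9.57% and 1.02% with edgeR. At an unadjusted p under 0.05 the DESeq2 count was 2 members higher and 0 lower. In 4 members (IFNB1, IFNL1, IFNL3 and IL10RB) every BRG1 sample was above every Control sample and in 0 below, which held for 15.4% and 8.88% of the 18096 genes with a count. The median fitted log2 fold change of the 9 members was 1.67, which is the value of IFNLR1, and was 1.10 over the 8 others with IFNL1 at its bound, and that of all genes with an adjusted p was -0.01. Since this contrast chose the members, nothing is read from these shares.

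Among the closest profiles over the 6 samples, by Pearson r of log2(normalised count + 1) among 11686 genes with a mean of at least 100, were those of SLCO2A1, SELP, CD180 and APCS for IFNB1, with r of 0.999. For IFNL1 they were DAAM2, ANXA1, TOX2, TNFRSF21 and TMEM2 (r of 0.999). With 3 samples against 3, many genes that differ between the groups reach such values: 561 genes had an r of at least 0.95 with IFNB1 and 713 with IFNL1.

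The remaining interferon genes were nearly all at or under the floor of 3 counts per group. Of the 15 in the table (interferon alpha genes, IFNW1 and IFNG among them), 12 had 0 counts in every sample and 14 stayed at or under 3 counts in both groups, and 0 were called. IFNG, the type II interferon, had 7 counts over the Control and 5 over the BRG1 group. IFNL4 was not analysed here.

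Related receptor genes were then counted. For these and the lists that follow, the DESeq2 share of all tested genes was 11.0% called higher and 1.84% called lower. Of 8 other class II cytokine receptor genes, 2 were called higher and 0 lower, with a median log2 fold change of 0.39. F3, which encodes tissue factor, the initiator of blood clotting, had a log2 fold change of 6.03 (SE 0.91, DESeq2 adjusted p 1.1e-09). IL20RB, a chain of receptors for interleukins of the interleukin 10 family, had one of 1.60 (SE 0.41, DESeq2 adjusted p 0.00106). Its adjusted p was 0.0404 with edgeR, and 0.0476 with DESeq2 when BRG1 replicate 1 was left out. F3 and IL20RB are not chains of the beta or lambda receptor. Below the receptors, 3 of 7 signalling genes were called higher and 0 lower, with a median of 0.51. Among them were STAT2 (log2 fold change 1.33, SE 0.18) and IRF9 (2.13, SE 0.14), with DESeq2 adjusted p-values of 2.8e-12 and 1.1e-52. For the kinases TYK2 and JAK2 the log2 fold changes were -0.14 and 0.06. When the replicate number was fitted as a block, 5 were called, with JAK1 and STAT3 added. Their adjusted p-values were 0.0045 and 1.6e-04 with DESeq2, and 0.0311 and 0.0201 with edgeR. With this block DESeq2 called 13.4% of all genes higher and 6.62% lower.

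Of 8 feedback inhibitors, 2 were called higher and 0 lower, with a median log2 fold change of 0.50. USP18, which displaces JAK1 from IFNAR2, went from 497 ± 76.3 to 5599 ± 822 normalised counts (SD, n = 3), with a log2 fold change of 3.50 (SE 0.19, DESeq2 adjusted p 7.8e-71). SOCS1, an inhibitor of JAK kinases, had a log2 fold change of 1.92 (SE 0.52, DESeq2 adjusted p 0.00276), and this call was lost without BRG1 replicate 1 (adjusted p 0.11) or BRG1 replicate 2 (0.0634).

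Of 15 genes that activate interferon beta transcription, 2 were called higher and 0 lower by DESeq2, with a median log2 fold change of 0.25. edgeR called 1 higher of the 13 that passed its low-count filter, which removed IKBKE, and 2 without that filter. TMEM173, the older symbol of the DNA sensing adaptor STING, had 3, 0 and 0 counts in Control and 56, 35 and 9 in BRG1 samples, a ratio of 30.7 with a 95% counting interval of 10.2 to 151 (DESeq2 adjusted p 0.00141). IKBKE, a kinase of IRF3 and IRF7, had 0, 0 and 2 counts in Control and 26, 9 and 15 in BRG1 samples, a ratio of 23 with an interval of 6.05 to 195 (DESeq2 adjusted p 0.0108). The groups did not overlap for either gene, but both calls were lost without BRG1 replicate 1 (adjusted p 0.0954 and 0.109), that of TMEM173 also without BRG1 replicate 2 (0.0618) and that of IKBKE also without BRG1 replicate 3 (0.0698). The factors IRF3 and IRF7 had log2 fold changes of -0.06 (95% interval -0.41 to 0.30) and 0.25 (-2.45 to 2.95) and were not called. IRF7 had 1, 5 and 4 counts in Control and 11, 1 and 2 in BRG1 samples, too few to tell a change from none.

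With the replicate block DESeq2 called 7 activators higher and edgeR called 6, where 13.7% of all genes were. The additions were NFKB1 (DESeq2 adjusted p 0.00483 with the block), JUN (2.6e-11), HMGA1 (0.00103), TICAM1 (0.0111) and IRF1. By edgeR with the block, NFKB1, JUN, HMGA1 and TICAM1 had adjusted p-values of 0.0306, 0.00183, 0.0191 and 0.0284. IRF1, an activator that is itself an interferon-responsive gene, is given by sample, a choice made after its values were seen. Its normalised counts were 6400.4, 5759.8 and 570.1 in Control and 14244, 16698 and 2233 in the BRG1 group, so that sample 3 was the lowest of both groups and BRG1 was the higher within each replicate number. Its DESeq2 adjusted p was 0.586 without the block and 1.1e-21 with it, and its edgeR adjusted p was 0.487 and 5.7e-04.

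All 15 interferon target genes on the list, which holds genes known from earlier results of these data, were called higher, with a median log2 fold change of 6.75, also with MX2 at its bound, and a range of 1.75 to 10.92. MX2, a dynamin-like antiviral protein, had 0 counts in each Control sample and 706, 425 and 154 in BRG1 samples. Taken as exact against the floor, these gave a bound of 394-fold, and the exact 95% lower limit of the ratio was 320.2. IFI44, IFI44L and BST2, the last of which encodes the virion-retaining protein tetherin, had log2 fold changes of 9.72, 9.70 and 9.58. Summed normalised counts of the list were 18499, 16925 and 18329.8 in Control and 227459.7, 250671 and 238214 in BRG1 samples. Within the BRG1 group SMARCA4 and IFNB1 were both highest in sample 1. SMARCA4 was nearly equal in samples 2 and 3 (1748 and 1773 CPM), whereas IFNB1 was lower in sample 3. The summed list was lowest in sample 1, but ISG15 and IFI6, both lowest there, held most of its counts. Among the others, MX2, OAS1, OAS2, IFIT2, IFIT3, RSAD2, IFI44, IFI44L and BST2 fell from sample 1 to sample 3 as IFNB1 did. MX1, OAS3, IFIT1 and EIF2AK2 had other orders.

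**Figure D4:**
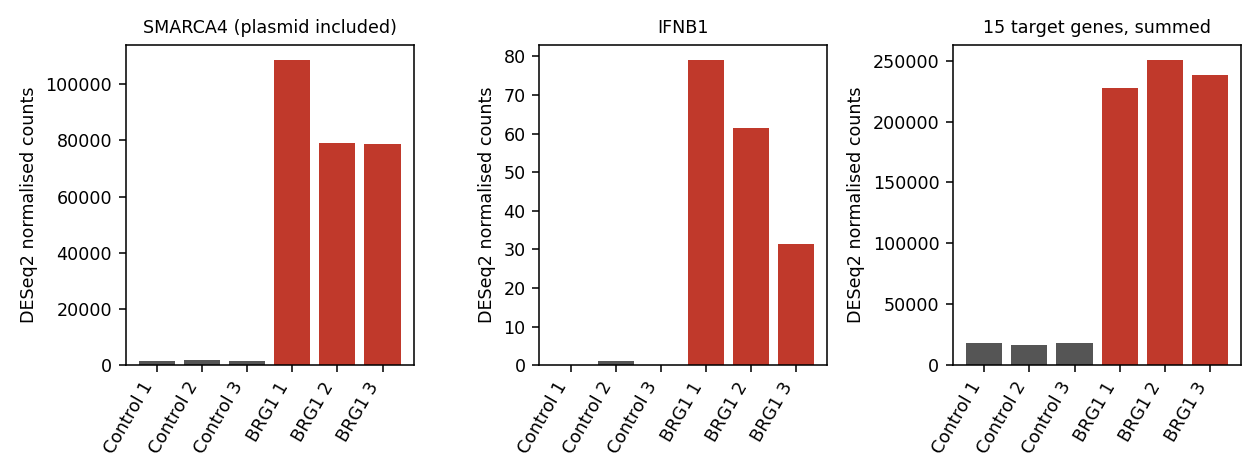
DESeq2 normalised counts in each of the 6 samples for SMARCA4 (plasmid transcripts included), IFNB1 and the sum of 15 interferon target genes; each bar is 1 sample, Control grey and BRG1 red, with axes from 0. All 3 BRG1 bars exceed all Control bars in each panel. IFNB1 falls from 79.1 to 31.3 among the BRG1 samples. The target sum, most of it ISG15 and IFI6, stays between 227459.7 and 250671.

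**Figure D5:**
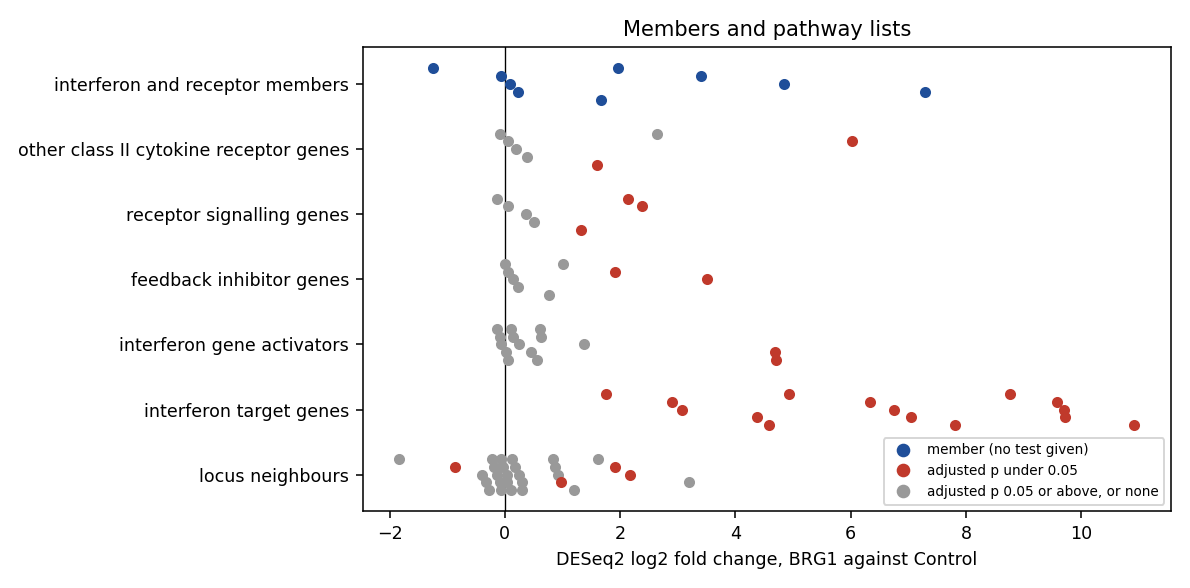
DESeq2 log2 fold change of BRG1 against Control for the members with a count (blue, no test given) and the genes of each pathway list, 1 point per gene, spread vertically for legibility; red marks an adjusted p under 0.05. Target genes lie between 1.75 and 10.92, whereas most signalling, inhibitor and activator genes lie near 0.

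Genes beside the member loci were compared with the members. Neighbours were the 3 nearest genes on each side of each locus, with other interferon genes and other class II cytokine receptor genes left out. Of these 30 neighbours, 26 had an adjusted p, 3 were called higher and 1 lower. Of all tested genes DESeq2 called 11.0% higher and 1.84% lower, so no regional result is read from these counts. The median log2 fold change of the neighbours was 0.10. All 4 called lie on chromosome 9: MLLT3 (log2 fold change 1.91, DESeq2 adjusted p 3.0e-05), CDKN2B, a cyclin-dependent kinase inhibitor (2.18, 1.5e-04), TEK, the angiopoietin receptor (0.97, 3.9e-05), and ACO1, the cytosolic aconitase (-0.86, 5.7e-12). The call of CDKN2B was lost with limma-voom (adjusted p 0.0814). MOB3B, which lies between the neighbours counted at the IFNK locus and is named after its values were seen, was also called higher, from 151 ± 24.4 to 428 ± 120.0 normalised counts (SD, n = 3; DESeq2 adjusted p 1.4e-06). Neighbours called beside the lambda genes on chromosome 19, the receptor genes on chromosome 21 and IFNLR1 on chromosome 1 numbered 0. With the replicate block 2 neighbours were called lower, FOCAD being added, as were 6.62% of all genes with DESeq2 and 5.68% with edgeR.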

How the data were processed

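RNA-seq libraries (unstranded Illumina TruSeq mRNA v2, 500 ng of RNA, read pairs of 78 bases) were made from 3 Control and 3 BRG1 samples, which the labels call biological replicates. The submitters' processing notes name FastQC 0.11.5, STAR 2.5.3a, Salmon 0.8.2, DESeq2 1.22.2 and hg38. The values deposited by the authors are estimated counts per gene symbol (tximport, scaled by transcript length and library size), in which multi-mapping reads are shared by a model, so near-identical genes are uncertain. Without strand, antisense reads add to a gene.

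The estimated counts were rounded. BRG1 was compared with Control by the Wald test of DESeq2 1.42.0 in R 4.3.3 with no covariate, Benjamini-Hochberg adjustment over all genes and a threshold of 0.05; the study names DESeq2 and no covariate. Normalised counts are counts divided by DESeq2 size factors. edgeR 4.0.16 (quasi-likelihood), limma 3.58.1 (voom), other normalisation and filters (10 counts in 3 samples), a threshold of 0.01, the replicate number as a block, and leaving out each sample were alternatives. The fits were tested on simulated data, where the false share of DESeq2 exceeded its threshold, so edgeR counts stand beside it where they differ. The simulation changed far fewer genes than were called here and held no pairing, so its false shares need not carry over to these data. Depth was 29699741 to 63613710 counts per sample; 3 counts over a group were taken as the floor. Ratios from few counts carry exact 95% conditional binomial intervals (scipy 1.17.1), which cover counting error only. Exon lengths and coordinates came from GENCODE release 44 on the same assembly, and promoters from RefSeq, in which 9 of 10 members matched.

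The replicate numbers were taken to pair the samples, because deviations from the group means of same-numbered samples correlated (r of 0.34, 0.30 and 0.46). The members and lists were chosen with earlier results of these data known. Named genes are all members and every called gene of a list (the 4 of largest change in longer lists). The rule also takes the 5 closest profiles to IFNB1 and IFNL1. JAK1, STAT3, FOCAD, MOB3B, IRF1, NFKB1, JUN, HMGA1, TICAM1, IRF3, IRF7, TYK2, JAK2, IFNG and further target genes were added after their values were seen. Some genes that this rule names are not reported here.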

Additional observations from a re-analysis of the deposited data

How the results depend on the processing

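The calls across the 10 members (1 higher, 0 lower) and the 15 target genes called higher were the same in number under every alternative. Among the members' fold changes the sign turned only for the uncalled IFNAR1 (0.11 without BRG1 replicate 3) and IFNAR2 (-0.04 without BRG1 replicate 2). The cause of the changes below was not tested. The fold change of IFNB1 (7.29 on the log2 scale) ran from 6.26 with limma-voom to 8.35 without Control replicate 2, the sample that held its single Control count, and was 6.59 without Control replicate 3. Genes called lower over the whole table (294) were 149 with unfiltered edgeR and 146 with its filter, 169 under limma-voom and 130 under the stricter threshold, whereas the replicate block gave 1035, or 809 in edgeR. Leaving out 1 replicate gave 117 at the lowest (BRG1 replicate 2) and 596 at the highest (BRG1 replicate 3). For the 2 activators called higher, edgeR and limma-voom, whose filter removes IKBKE, each gave 1, as did the stricter threshold. Unfiltered edgeR gave 2. A filter of 10 counts in 3 samples, which removes TMEM173 and IKBKE, gave 0, and the replicate block gave 7, or 6 in edgeR. Leaving out a replicate gave 0 (BRG1 replicate 1) to 3 (BRG1 replicate 3). Signalling genes called higher (3) were 5 with either block and 3 to 4 when a replicate was left out. Feedback inhibitors called higher (2) were 1 to 2 when a replicate was left out, neighbours called higher (3) were 2 with limma-voom, and neighbours called lower (1) were 2 with either block and 1 to 2 when a replicate was left out. With DESeq2 the block also added SOCS3 and IFNGR1 and, beside the genes named with their lists, changed no other call of the members and lists. Depth limits the lambda genes, IFNK, IFNE and IFNLR1, which held at most 10 counts in any sample: 3 counts correspond to 0.0472 to 0.101 CPM in a single sample.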
